A study of Homo sapiens with 6 samples.

Results

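A set of 10 genes that mark sprouting endothelial tip cells were followed in human umbilical vein endothelial cells supplied with a microRNA: ESM1, APLN, CXCR4, PDGFB, ADM, FSCN1, CD34, KCNE3, RAMP3 and PXDN. They were taken by symbol from the 45372 Ensembl gene IDs listed for each library, and all 10 were found. Human umbilical vein endothelial cells, or HUVECs, are primary cells of the vein wall, and the labels give their genotype as WT. Both groups were transfected with the lipid reagent Lipofectamine 2000 and harvested at 48 h. The mimic group (3 libraries) received 50 nM of a synthetic miR-409-3p, and the control group (3 libraries) received 50 nM of a non-specific RNA. Every sample title also calls the cells non treated, without saying which treatment was withheld. The labels call the libraries biological replicates, and the design text adds that each RNA sample pooled 4 technical replicates. Whether the replicates came from separate donors or cultures is not given in the sources used here, so p-values measure the spread between these libraries only.

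A new vessel sprout is led by a tip cell, which senses VEGF, extends filopodia and digests its way into the tissue, while stalk cells behind it divide and form the tube. The tip cell shows the Notch ligand DLL4 to its neighbours, and Notch signalling in them keeps them from becoming tip cells. Tip cells are recognised by a set of secreted factors (ESM1, APLN, PDGFB, ADM), receptors and surface proteins (CXCR4, RAMP3, CD34, KCNE3), and proteins of the cytoskeleton and matrix (FSCN1, PXDN). The series title places miR-409-3p and BTG2 in angiogenesis, and the comparison here asks whether tip cell transcripts differed when the microRNA was supplied.

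The sequences shown first are the microRNA and its possible pairing sites in the members, since pairing of the seed (bases 2 to 8 of the microRNA) with a 3′ UTR is the usual route by which a microRNA lowers a transcript. The mature strand, 22 nt at chr14:101065346-101065367 on the plus strand (RefSeq, GRCh38.p14), is printed 5′ to 3′ with the seed in capitals.
hsa-miR-409-3p: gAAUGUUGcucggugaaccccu
The UTRs were searched on the transcript strand for 4 site classes, of which the longer contain the shorter. The shortest, the 6mer, is AACATT, the 7mer-m8 adds a C before it (CAACATT), the 7mer-A1 adds an A after it (AACATTA), and the 8mer has both (CAACATTA). Of the 10 members, 5 held at least the 6mer in their longest annotated 3′ UTR (GENCODE 29, GRCh38). The share among 11855 tested protein-coding genes with a 3′ UTR was 45.3%. No member held an 8mer, ESM1 held a 7mer-m8 and KCNE3 a 7mer-A1, against 22.8% of those genes with any 7mer or 8mer. These sites are printed with their flanks and with the matched bases in capitals.
ESM1 7mer-m8: tcaacacacagcCAACATTttaggaactt
KCNE3 7mer-A1: cttacttttgcaAACATTAtgaaaatata
CXCR4 6mer: aaaagggaactgAACATTccagagcgtg
CD34 6mer: catattttacttAACATTcacagaaacc
PXDN 6mer, first of 3: tgggctctctgtAACATTtcaccacacg
The ESM1 match lay at chr5:54979269-54979275, base 57 of a UTR of 1468 nt, and the KCNE3 match at chr11:74456586-74456592, base 660 of 2411 nt. The CXCR4 match lay at chr2:136114600-136114605, base 264 of 520 nt, that of CD34 at chr1:207883648-207883653, base 4085 of 6766 nt, and the PXDN match shown at chr2:1633562-1633567, base 637 of 2317 nt. All of these genes are transcribed from the minus strand. The site was present in each annotated coding transcript with a 3′ UTR for ESM1 (2 of 2) and CXCR4 (2 of 2), and in part of them for KCNE3 (1 of 2), CD34 (1 of 3) and PXDN (1 of 2). APLN, PDGFB, ADM, FSCN1 and RAMP3 held 0 copies of the 6mer in the 3′ UTR. A match is a description of letters, and the files give 1 value per gene, so which transcript the cells used was not measured. ESM1, PDGFB, CD34 and KCNE3 overlap other annotated genes, on the opposite strand for the last 3, and since the use of strand is unknown, reads could be shared. Those neighbours measured at most 0.461 TPM.

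Levels were deposited as TPM, a read density per gene length that sums to the same amount in every library, so that genes can be compared with each other. Each library held an estimated 29.8 to 35.8 M assigned reads, worked back from the TPM steps of low genes. Principal component 1 of all tested genes held 26.7% of the variance, and the groups overlapped on it. On component 2, with 24.2%, control libraries lay at 3.73 to 15.1, above the mimic libraries at -19.2 to 2.55. The HUVEC label was matched by endothelial markers, of which 12 of 12 passed the filter for testing, and their summed level was 6220 to 6494 TPM in control and 6514 to 6709 TPM in mimic libraries. Those sums did not overlap, and their part in the results on single members was not tested. Of the markers of other cell types, 0 of those tested passed by limma with Benjamini-Hochberg adjustment, where 0.431% of all tested genes did. Among 7 leukocyte markers, 6 stayed under 1 TPM in every library, and 3 of these (PTPRC, CD3E and ITGAM) were listed at 0 throughout. The leukocyte sum, nearly all from CD68, was 16.9 to 19.9 TPM in control and 16.9 to 19.1 TPM in mimic libraries. The summed fibroblast markers measured 14.3 to 17.2 TPM in control and 14.2 to 17.9 TPM in mimic libraries. Of the smooth muscle and pericyte markers 6 of 8 stayed under 1 TPM in every library, as did 2 of 6 epithelial and 6 of 6 red cell and platelet markers. Their sums were 499 to 523 TPM and 508 to 549 TPM for smooth muscle and pericytes, nearly all from RGS5, and 307 to 318 TPM and 261 to 327 TPM for epithelium, mostly from KRT18, in control and mimic libraries. BTG2, the other gene of the title, fell from 80.0 ± 1.05 to 51.6 ± 5.22 TPM (mean ± SD, n = 3 each, limma with Benjamini-Hochberg adjustment, adjusted p = 0.0143).

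Most members were among the abundant transcripts of these cells. Over the 6 libraries the mean levels ranked as APLN (941 TPM), FSCN1 (729 TPM), ESM1 (666 TPM), PXDN (283 TPM), CXCR4 (175 TPM), PDGFB (150.1 TPM), ADM (108 TPM), CD34 (60.8 TPM), KCNE3 (1.94 TPM) and RAMP3 (0 TPM). APLN stood 132nd of the 13680 genes tested, FSCN1 180th and ESM1 205th, and these genes lay above 98.5% of tested genes. KCNE3 lay above 9.69% of them. Neighbours in the order were apart in every library except FSCN1 and ESM1, which kept the order in 4 of 6 libraries, and CXCR4 and PDGFB, which kept it in 5 of 6. Together the 10 genes took 0.285% to 0.336% of all TPM in control and 0.304% to 0.314% in mimic libraries.

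**Figure D1:**
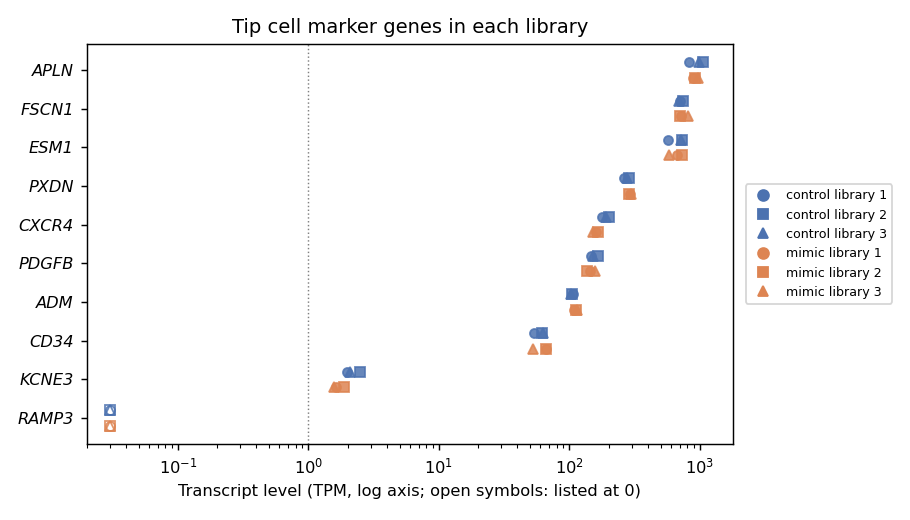
Level of each tip cell marker gene in TPM on a log axis, 1 symbol per library (control blue, mimic orange; open symbols stand for a value listed at 0, and the dotted line marks 1 TPM). APLN, FSCN1 and ESM1 sit at 573 TPM or more in every library, KCNE3 near 2 TPM, and RAMP3 at 0.

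None of the members passed the test between mimic and control. The test was limma on log2(TPM + 1) with group as the only term, fitted to the 13680 genes that reached 1 TPM in 3 or more libraries, with p-values adjusted by Benjamini-Hochberg over all of them and a threshold of 0.05. Of the 9 members tested, 0 rose and 0 fell, where 0.431% of all tested genes passed, 0.3% as falls and 0.132% as rises. At an unadjusted p under 0.05, 1 member lay lower (CXCR4) and 0 lay higher, where 10.7% of all tested genes reached that level, 3.05% higher and 7.64% lower. The groups did not overlap for 3 members, ADM higher and CXCR4 and KCNE3 lower, where this held for 15.7% of all tested genes, 5.16% higher and 10.5% lower. The median log2 fold change of the 9 genes was -0.01 and that of all tested genes -0.02. These shares come from 9 genes, in which 1 gene is a large step. In bulk RNA the number of tip-like cells and the amount of RNA per such cell cannot be told apart.

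**Figure D2:**
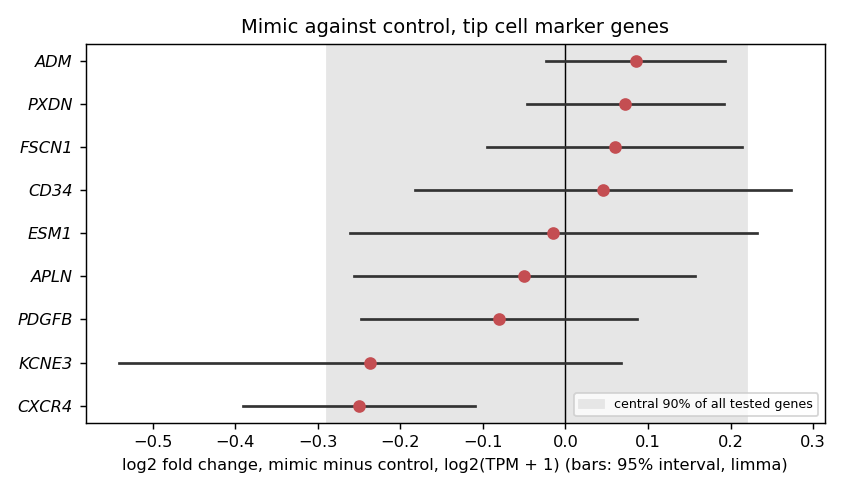
Log2 fold change of the 9 tested tip cell marker genes, as mimic minus control in log2(TPM + 1), with the 95% interval of the limma fit as bars. The grey band spans -0.29 to 0.22, the central 90% of all tested genes, and every point lies inside it.

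Among the secreted factors, APLN encodes apelin, a peptide that acts through the receptor APLNR and promotes vessel growth (chrX:129645259-129654937, minus strand). APLN measured 826, 1063 and 989.6 TPM in control libraries 1 to 3 and 882, 915 and 970.2 TPM in mimic libraries 1 to 3. All mimic values lay between the lowest and the highest control value. The means were 959 ± 122 and 923 ± 44.4 TPM (SD, n = 3 each), with a log2 fold change of -0.05 (SE 0.09, 95% interval -0.26 to 0.16). The limma adjusted p was 0.941.

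PDGFB encodes the growth factor by which sprouts recruit pericytes (chr22:39223359-39244751, minus strand). Control libraries stood at 146, 166 and 151 TPM, and mimic libraries at 144, 136 and 159 TPM. The groups overlapped, with mimic library 3 above control libraries 1 and 3. The log2 fold change was -0.08 (SE 0.07, 95% interval -0.25 to 0.09), and the limma adjusted p was 0.830.

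ADM encodes adrenomedullin, a vasodilator peptide that hypoxia induces (chr11:10304680-10307397, plus strand). Its level was 107, 105 and 103 TPM in the controls and 109, 112 and 114 TPM with the mimic. Every mimic value lay above every control value, and the coefficient of variation was 1.84% in control and 1.94% in mimic libraries, where those of the other tested members ran from 1.66% to 12.7%. The means were 105 ± 1.93 and 112 ± 2.17 TPM (n = 3 each), 1.06 times the control level, with a log2 fold change of 0.09 (SE 0.05, 95% interval -0.02 to 0.19). ADM did not pass limma (adjusted p = 0.609).

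ESM1 encodes endocan, a proteoglycan that is one of the most used tip cell markers and is induced by VEGF (chr5:54977864-55022671, minus strand). Controls gave 573, 725 and 712 TPM, and mimic libraries 667, 735 and 585 TPM. Control library 1 lay well below control libraries 2 and 3, while the mimic libraries were spread over 585 to 735 TPM. The means were 670.1 ± 84.0 and 662 ± 75.1 TPM (n = 3 each), with a log2 fold change of -0.01 (SE 0.11, 95% interval -0.26 to 0.23) and a limma adjusted p of 0.989. ESM1 is the member with the 7mer-m8 site printed above.

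Of the receptors, CXCR4 binds the chemokine CXCL12 and guides migrating endothelial cells (chr2:136114349-136118165, minus strand). It had the smallest p of the members. Its level was 178, 201 and 190.3 TPM in control and 161, 166 and 152 TPM in mimic libraries. The highest mimic library lay below the lowest control library. The means were 190.0 ± 11.4 and 159.5 ± 7.30 TPM (n = 3 each), a ratio of 0.840, and the log2 fold change was -0.25 (SE 0.06, 95% interval -0.39 to -0.11). The unadjusted limma p was 0.00314 and the adjusted p 0.148, so CXCR4 did not pass over all genes. An exact two-sided permutation test of 3 against 3 libraries gave p = 0.1, the smallest it can give. Any gene whose groups do not overlap gets that value, as ADM and KCNE3 did, so it adds nothing to the lack of overlap. The limma adjusted p of CXCR4 ran from 0.0918 to 0.444 over 16 other settings, with a fold change below 0 in each.

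RAMP3, which turns the receptor CALCRL into an adrenomedullin receptor, was listed at 0 in all 6 libraries (chr7:45157791-45186302, plus strand). At the estimated depth, a count of 0 allows up to 3 reads, or 0.237 to 0.279 TPM depending on the library, and this covers counting error only. RAMP3 was therefore not detectable in either group and was not tested.

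CD34 encodes a sialomucin of the cell surface that marks a small tip-like fraction of cultured HUVECs (chr1:207880972-207911402, minus strand). The control libraries gave 54.0, 61.9 and 63.3 TPM, and the mimic libraries 66.5, 66.3 and 52.8 TPM. The highest and the lowest values of all both came from the mimic group. The log2 fold change was 0.05 (SE 0.10, 95% interval -0.18 to 0.27), with a limma adjusted p of 0.957.

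KCNE3 encodes a small accessory subunit of potassium channels (chr11:74454841-74467729, minus strand). Its level was 1.97, 2.47 and 2.10 TPM in control and 1.64, 1.87 and 1.58 TPM in mimic libraries, an estimated 44 to 74 reads per library. All mimic values lay below all control values. The means were 2.18 ± 0.259 and 1.70 ± 0.150 TPM (n = 3 each), a ratio of 0.778. The log2 fold change, which the pseudocount pulls towards 0 at this level, was -0.24 (SE 0.13, 95% interval -0.54 to 0.07), and KCNE3 did not pass limma (adjusted p = 0.616).

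FSCN1 encodes fascin, which bundles actin filaments in the filopodia of tip cells (chr7:5592823-5606655, plus strand). Levels were 704, 749 and 689 TPM in the controls and 723, 699 and 814 TPM with the mimic. Mimic library 3 alone exceeded every control library. The log2 fold change was 0.06 (SE 0.07, 95% interval -0.09 to 0.21, limma adjusted p = 0.886), and without that library it was -0.0052.

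PXDN encodes peroxidasin, the enzyme that cross-links collagen IV in basement membranes (chr2:1631887-1744852, minus strand). Controls stood at 262, 289 and 278 TPM, and mimic libraries at 291, 285 and 295 TPM. Control library 2 overlapped the mimic group, and the other two controls lay below it. The means were 276 ± 13.4 and 290.1 ± 4.82 TPM (n = 3 each), with a log2 fold change of 0.07 (SE 0.05, 95% interval -0.05 to 0.19) and a limma adjusted p of 0.740. Its coding sequence also held 1 copy of CAACATT, beside 3 copies of AACATT in the 3′ UTR.

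Read against the printed sites, the 5 members with a match measured -0.25 (CXCR4), -0.24 (KCNE3), -0.01 (ESM1), 0.05 (CD34) and 0.07 (PXDN) in log2 fold change. The 4 tested members without one measured -0.08 (PDGFB), -0.05 (APLN), 0.06 (FSCN1) and 0.09 (ADM). Of the members with a 7-base match, KCNE3 was at -0.24 and ESM1 at -0.01. The difference between the sets with and without a match was not tested.

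The members did not vary together across libraries. CXCR4 and KCNE3 ranked the 6 libraries in the same order, from control 2 at the top through control 3, control 1, mimic 2 and mimic 1 to mimic 3. ESM1 and CD34 shared another pattern, in which control 1 and mimic 3 were the lowest libraries of both genes, by 0.16 to 0.21 below the mean on the log2(TPM + 1) scale. APLN and PDGFB were both highest in control library 2. FSCN1, PXDN and ADM were highest in mimic library 3, the library where CXCR4, KCNE3 and CD34 were lowest. The SD over all 6 libraries ranged from 0.05 for ADM to 0.16 for ESM1, against a median of 0.11 for all tested genes. Mimic library 3 was also the shallowest, at an estimated 29.8 M reads, and the part of depth in these patterns was not tested.

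**Figure D3:**
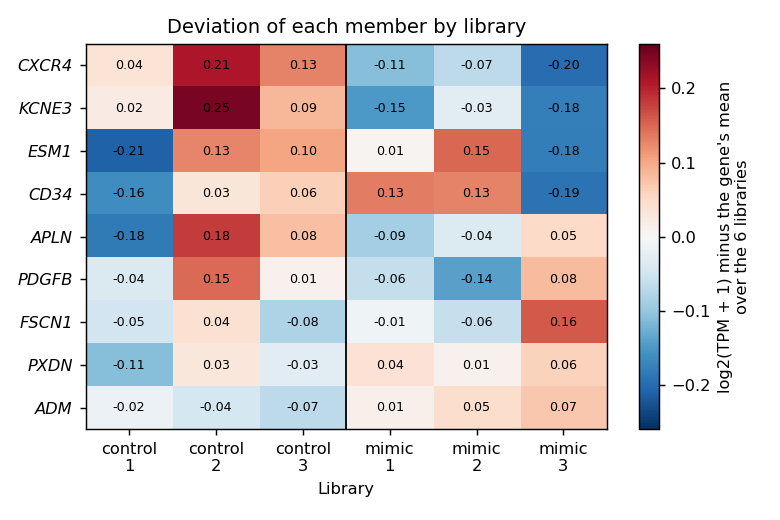
Deviation of each tested member from its own mean over the 6 libraries, in log2(TPM + 1), by library (red above, blue below, the line divides control from mimic). CXCR4 and KCNE3 are positive in all controls and negative in all mimics, while ESM1 and CD34 are lowest in control 1 and mimic 3.

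The genes whose profile was most like that of CXCR4 over the 6 libraries were TAF4, ZSCAN31, CLDN12, WEE1 and BAG4, each with a Pearson r of 0.99. Of 10550 candidates with a mean of at least 5 TPM, 443 genes (4.20%) had an r above 0.9 with CXCR4. For ESM1, the member with the largest SD, the closest were RBM27, INSIG2, RAI14, ATAD2 and MRPS22, each with an r of 0.99, and 348 genes (3.30%) exceeded 0.9. With 6 points that share libraries and groups these values describe the profiles only.

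The receptors and ligands that the members pair with were present for some members and near 0 for others. CALCRL, the adrenomedullin receptor, stood at 180.0 ± 4.76 TPM with control RNA and 192 ± 18.8 TPM with the mimic, and its partner RAMP2 measured 48.6 ± 5.48 and 49.1 ± 3.68 TPM (n = 3 each). The other partners of CALCRL were RAMP1, listed at 0 in 5 of 6 libraries, and RAMP3, at 0 in all. Thus RAMP2 was the one family member of the 3 above 1 TPM. APLNR, the apelin receptor, measured 0.567 to 1.00 TPM over the 6 libraries beside the 941 TPM of APLN. CXCL12 measured at most 0.167 TPM, while ACKR3, the scavenging receptor for CXCL12, measured 28.0 ± 3.41 and 27.5 ± 2.72 TPM in control and mimic libraries. PDGFRB, the PDGFB receptor of pericytes, measured 0.130 to 0.308 TPM. Of the channels that KCNE3 modifies, KCNQ1 measured 0.0519 to 0.149 TPM and KCNC4 2.59 to 3.18 TPM over the 6 libraries.

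**Figure D4:**
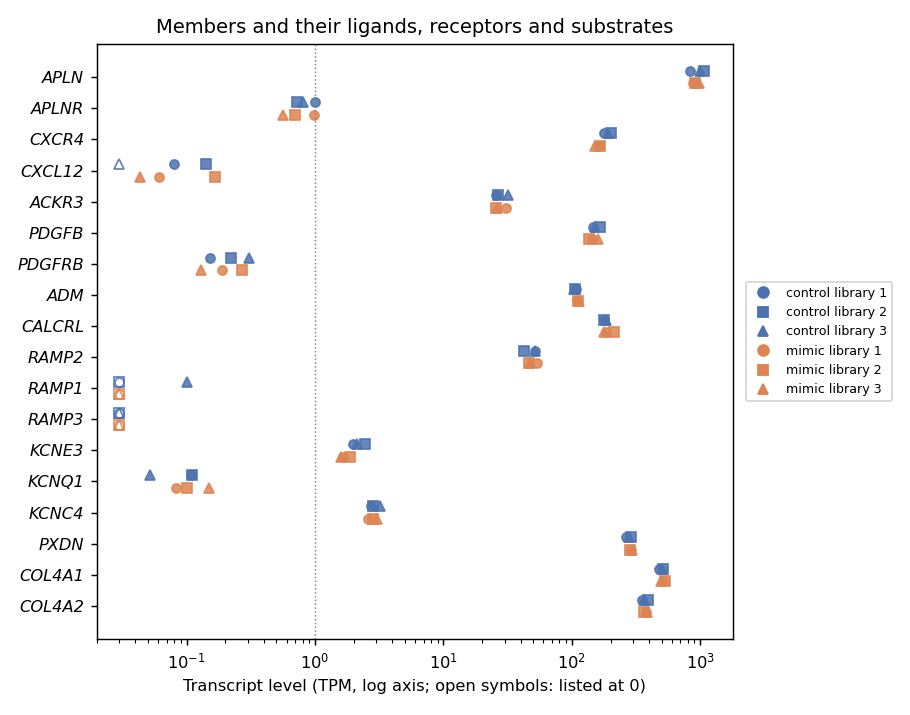
Level in TPM on a log axis of members beside their ligands, receptors, co-subunits and substrates, 1 symbol per library (control blue, mimic orange; open symbols stand for a value listed at 0, and the dotted line marks 1 TPM). CALCRL and RAMP2 sit above 40 TPM, whereas PDGFRB, CXCL12, KCNQ1 and RAMP1 stay under 1 TPM.

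Of the 27 partner genes, 11 passed the filter and 0 rose or fell by limma with Benjamini-Hochberg adjustment. Among all tested genes 0.431% did, and the median log2 fold change of the 11 partners was 0.02. At an unadjusted p under 0.05, 1 was higher, the collagen IV chain COL4A5 (17.9 ± 0.121 and 19.9 ± 0.858 TPM, n = 3 each, limma adjusted p = 0.421). Of all tested genes 10.7% reached that level, 3.05% higher and 7.64% lower. The collagen IV chains that PXDN cross-links, COL4A1 and COL4A2, had log2 fold changes of 0.04 (SE 0.05) and 0.02 (SE 0.05). Of the 18 closest relatives of the members 8 were tested, and 0 passed at either level of p. The shares of all tested genes were 0.431% adjusted and 10.7% unadjusted. Among the PDGF genes in these cells PDGFB was the most abundant, ahead of PDGFA at 23.4 ± 2.92 and 20.2 ± 1.46 TPM and PDGFD at 16.7 ± 0.722 and 17.8 ± 2.28 TPM in control and mimic libraries.

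Another 33 tip cell genes were all tested, and DLL4 was the 1 to pass, where 0.431% of all tested genes passed. The list was chosen with earlier results of these data known, so its count is a description only. DLL4 fell from 112 ± 0.464 to 89.9 ± 1.71 TPM (n = 3 each), a log2 fold change of -0.32 (SE 0.05, limma with Benjamini-Hochberg adjustment, adjusted p = 0.0321). Its control libraries all lay above its mimic libraries. The call was lost when any 1 library was left out (adjusted p = 0.0549 to 0.165), with no filter (0.0533), with an untrended prior (0.0895) and with the replicate block (0.161). At an unadjusted p under 0.05, 3 genes of the list lay higher and 1, DLL4, lower, where 3.05% of all tested genes lay higher and 7.64% lower. The 3 higher were STC1, a secreted glycoprotein gene (10.8 ± 0.391 and 13.8 ± 0.674 TPM, limma adjusted p = 0.0983), and the basement membrane genes NID1 (log2 fold change 0.14, SE 0.05) and NID2 (0.16, SE 0.06). The list's median log2 fold change was 0.02, with 20 genes above 0 and 13 below. CXCR4, at -0.25, had SDs of 11.4 and 7.30 TPM on means of 190.0 and 159.5 TPM in control and mimic libraries. Those of DLL4 were 0.464 and 1.71 TPM on 112 and 89.9 TPM. In the limma fit the SEs were 0.06 for CXCR4 and 0.05 for DLL4, on log2 fold changes of -0.25 and -0.32. The part of spread or of fold change in the calls was not tested.

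The stalk and phalanx list marks the cells behind the tip, and 0 of its 18 tested genes passed by limma with Benjamini-Hochberg adjustment. Among all tested genes 0.431% passed. Of these 18, 3 lay lower and 0 lay higher at an unadjusted p under 0.05. Among all tested genes, 7.64% lay lower and 3.05% higher at that level, and the difference was not tested. HEY1, a Notch target, measured 16.6 ± 1.61 and 12.7 ± 1.56 TPM (log2 fold change -0.36, SE 0.10). SMAD7, an inhibitor of TGF-beta signalling, had -0.35 (SE 0.14) and PTPRB, the endothelial phosphatase, -0.16 (SE 0.07). The other tested Notch genes of the list lay on both sides of 0. They were the ligand JAG1 at -0.15 (SE 0.07), NRARP at -0.06 (SE 0.05), NOTCH4 at -0.04 (SE 0.05), NOTCH1 at 0.08 (SE 0.07) and HES1 at 0.10 (SE 0.05).

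The hypoxia and VEGF list covers signals known to raise ADM, ESM1 and APLN. By limma with Benjamini-Hochberg adjustment 0 of its 16 tested genes passed, where 0.431% of all tested genes did. At an unadjusted p under 0.05, 1 gene was higher and 1 lower, where 3.05% of all tested genes lay higher and 7.64% lower. EPAS1, which encodes HIF-2alpha, was higher (301 ± 4.66 and 345 ± 21.5 TPM, limma adjusted p = 0.223). ANGPTL4, a hypoxia and PPAR target, was lower (10.7 ± 0.850 and 6.58 ± 1.31 TPM, limma adjusted p = 0.0893). VEGFA itself measured 3.69 ± 0.516 and 3.26 ± 0.127 TPM (n = 3 each). Among filopodium and actin bundling genes, which work beside FSCN1, 0 of 15 tested genes passed and 0 reached an unadjusted p under 0.05. Those levels were reached by 0.431% and 10.7% of all tested genes. The median log2 fold change of the 15 was 0.01.

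**Figure D5:**
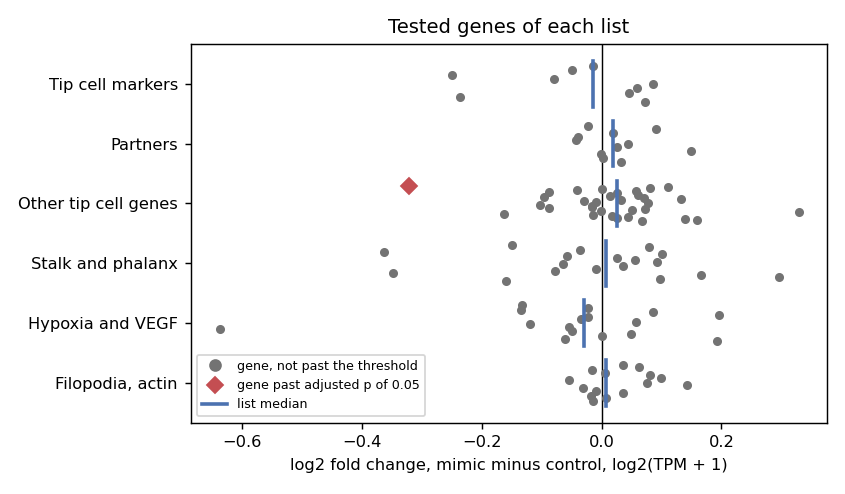
Log2 fold change, as mimic minus control in log2(TPM + 1), for every tested gene of 6 lists (grey points; red diamond for a gene past an adjusted p of 0.05; blue bars for list medians). DLL4, at -0.32 among the other tip cell genes, is the 1 gene past the threshold, and list medians lie between -0.03 and 0.02.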

How the data were processed

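RNA from 3 mimic and 3 control transfections was enriched for mRNA and sequenced as single reads, per the labels' protocols. The authors deposited a TPM value for each of 45372 Ensembl IDs per library, per the file headers. Per the submitters' processing notes the genome was hg38, with GRCh38.p13 also named. No aligner, counter, annotation or use of strand is given in the sources used here. Symbols matched 45102 IDs, and GENCODE 29 lengths and positions 43348.

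Depth was estimated by finding, in each library, the value of TPM × exon length that 1 read is worth. On average 80.9% of low genes (under 15 reads) then fell within 0.05 of a whole number of reads.

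Groups came from the sample titles. The fit used limma 3.58.1 in R 4.3.3 (trended prior, two-sided). It was also run on simulated data, but its recovery of changed genes is not given here, so the size of change it could detect is not stated. Fold changes (mimic less control) are differences of mean log2(TPM + 1) and so understate changes of low genes, and intervals are the 95% limits of the fit. Python 3.11.15 with pandas 2.3.3 and scipy 1.17.1 did the rest. Members and gene lists were chosen with earlier results of these data known. Named were all members, their direct partners, list genes past the threshold, up to 3 list genes with the smallest unadjusted p under 0.05, BTG2, and the 5 genes most like CXCR4 and ESM1. Also named, chosen after their values were seen, were KCNC4, RGS5, KRT18, CD68, PDGFA, PDGFD, JAG1, NOTCH1, NOTCH4, HES1, NRARP and VEGFA. Alternatives covered the pseudocount, filter, prior, scaling, replicate block and each library left out.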

Additional observations from a re-analysis of the deposited data

How the results depend on the processing

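Under 16 alternatives 0 members passed, higher or lower, and CXCR4, KCNE3, PDGFB, ADM and PXDN kept their direction wherever tested (KCNE3 in 15, as it lies below a filter of 5 TPM). The members whose log2 fold change turned sign were those nearest 0. With 1 library left out it spanned -0.15 to 0.028 for APLN, -0.024 to 0.15 for CD34, -0.12 to 0.071 for ESM1 and -0.0052 to 0.10 for FSCN1, and ESM1 was at 0.0068 with median-of-ratios scaling. At an unadjusted p under 0.05, members numbered 1 higher with no filter and 2 lower with an untrended prior, and 1 to 2 lower with 1 library left out. Members without overlap, 1 higher and 2 lower, were 2 higher with median-of-ratios scaling. With 1 library left out they were 1 to 2 higher and 2 to 3 lower (3 lower without control library 1 or mimic library 3). With 2 libraries in a group values part more easily, so the 15.7% of all tested genes found with 3 against 3 does not apply there. The shares of all genes under these settings are not given for either count of members, so neither count can be set against all genes. Over all genes, 18 rises and 41 falls, the number depended more on the settings. It was 36 and 79 when the filter was 5 TPM, 6 and 5 without a filter, 10 and 10 for the untrended prior, 37 and 82 for the robust prior, and 54 and 122 among protein-coding genes alone, a setting chosen after seeing the data. Median-of-ratios scaling raised the rises to 33, and quantile normalization to 34. Leaving out 1 library gave 6 to 22 rises and 6 to 27 falls. The replicate block gave 9 and 5. Deviations of same-numbered libraries correlated at 0.03, -0.09 and -0.11, and not every library correlated best with its own number. With 3 libraries per group these values cannot decide whether same-numbered libraries shared a donor, culture or day. The cause of the moves in the number of genes called was not tested. Seed matches were found in 5 members over every annotated transcript as well.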
